A study of Mus musculus with 8 samples.

Results

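The 9 genes described here encode transcription regulators that act in meiotic spermatocytes and spermatids: Mybl1, Brdt, Sox30, Rfx2, Crem, Fhl5, Tbpl1, Taf7l and Pou5f2. They were chosen by name. Every non-control probe carrying 1 of these gene names was taken, which gave 15 of the 55681 probes on the array. Probes entered the tests if the scanner called them well above background on both arrays in any of the 4 groups, and all 15 did, among 37807. Of the 15, 12 carried that call on all 8 arrays. Of the 9 genes, 5 had 1 probe and 4 had several: Crem had 4, and Brdt, Fhl5 and Tbpl1 had 2 each. For counts of genes, each gene was represented by 1 tested probe, the brightest on average across the arrays, called here its counting probe, among 26584 genes in all.

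RNA of whole testes from C57BL/6 mice was hybridised to Agilent 1-colour arrays, 1 Cy3-labelled sample per array. The groups were Ip6k1-/- mice (KO) at 26 days postpartum (dpp), Ip6k1+/+ mice (WT) at 26 dpp, KO at 17 dpp and WT at 17 dpp, with 2 arrays each (n = 2), called biological replicates in the labels. KO and WT were littermates from crosses of Ip6k1+/- mice, and the labels name no transgene, Cre driver or other treatment. The product of Ip6k1 is an inositol hexakisphosphate kinase that forms an inositol pyrophosphate, and the part of the gene removed in the KO is not given in the sources used here. Every value is a log2 signal relative to the 75th percentile of the same array, and levels are compared between arrays for 1 probe and never between probes.

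The first wave of mouse spermatogenesis runs nearly in step, so that juvenile testes of rising age hold successively later germ cells, with spermatocytes followed by round and then elongating spermatids. A small set of germ cell transcription regulators acts in turn over these stages. A-MYB switches on the programme of pachytene spermatocytes, and CREM with its coactivator drives many genes of haploid cells. Variants of the general transcription machinery also replace or join the somatic forms in these cells.

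Ip6k1 was lower in all 4 KO arrays. Its log2 signal was 1.55 and 1.49 in KO against 2.92 and 2.89 in WT at 26 dpp, and 1.58 and 1.67 in KO against 2.38 and 2.48 in WT at 17 dpp. In limma with Benjamini-Hochberg adjustment over all probes tested, neither difference passed (-1.38 ± 0.22, SE, adjusted p = 0.536 at 26 dpp, or -1.35 without KO replicate 2; -0.81 ± 0.22, adjusted p = 1.00 at 17 dpp). One array stood apart from its group. Across genes, replicate 2 of the KO at 26 dpp had a Pearson's r of 0.917 to 0.948 with the 17 dpp arrays, of 0.873 and 0.838 with WT at 26 dpp and of 0.863 with its own replicate 1, whereas that replicate 1 had 0.992 and 0.989 with WT at 26 dpp. Its Ip6k1 signal was that of a KO, and its closest arrays over all genes were those of the younger age. Members did not all lie at the younger level in this array. It read -1.52 for Mybl1, 4.997 for Brdt and 2.08 for Sox30. The ranges at 17 dpp were -2.66 to -2.59, 0.92 to 2.11 and 0.37 to 1.30, KO and WT together. Pou5f2, Tbpl1, Crem and Rfx2 lay between the ages, and Fhl5 and Taf7l (-3.76 and 5.53) lay near the arrays of 17 dpp. The age label was kept. Whether it is right, and why this array stood apart, was not tested. Markers of spermatids also set this array apart. The median log2 signal of 10 round spermatid markers was 3.46 and -2.99 in the 2 KO arrays at 26 dpp, against 3.16 and 3.91 in WT at 26 dpp, and lay between -4.05 and -3.40 in the 4 arrays of 17 dpp. Medians of 10 elongating spermatid markers were 6.57 and -3.96 in KO and 5.97 and 7.44 in WT at 26 dpp. At 17 dpp they lay between -5.46 and -4.29. Those of 7 Leydig cell markers were -0.76 and -4.22 in KO and -0.66 and -0.80 in WT at 26 dpp. At 17 dpp they lay between -2.92 and -1.03. For 6 peritubular myoid cell markers the median was 0.24 in KO replicate 2 at 26 dpp. It was 2.32 to 2.43 in the other arrays of 26 dpp and 1.32 to 2.28 at 17 dpp. The log2 of the summed signal of these myoid markers was 6.04 in that array, against 5.42 to 5.52 and 6.16 to 6.80. The median of 10 Sertoli cell markers was 2.17 in KO replicate 2 at 26 dpp. It was 2.30 to 2.47 in the other arrays of 26 dpp and 3.57 to 3.95 at 17 dpp. The log2 of their summed signal was 9.05 in that array, against 7.78 to 7.93 and 8.99 to 9.13. Epididymis markers differed between the genotypes at 17 dpp, with medians of -7.48 and -7.46 in the KO arrays and -0.42 and 0.81 in the WT arrays, where 6 of the 7 measured were lower in KO. At 26 dpp their medians were -7.65 and -7.31 in KO and -7.53 and -7.45 in WT. As a check of the tissue, 9 of 10 Sertoli cell markers and 10 of 10 early meiotic markers were well above background on all arrays. Results of the members that use the KO at 26 dpp are given below with and without its replicate 2. The arrays of 17 dpp filled the first row of the slide and those of 26 dpp the second, so that age and slide row cannot be told apart.

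The promoters of the members were searched for motifs of the factor families described here. RefSeq windows of 250 bases before and 50 after the annotated start (GRCm38.p6) were matched by symbol for 7 of the 9 members, all but Mybl1 and Crem, with 8 windows because Fhl5 had 2. Each was searched on both strands for 8 short motifs: the CRE of CREM (TGACGTCA) and its short form (TGACGT), the short X-box of RFX proteins (GTTGCC), the MYB core (TAACNG or CAACNG), the SOX core (AACAAT), the octamer of POU proteins (ATGCAAAT), TATAAA and CCAAT. The windows of 4 members are shown, those of the 3 members with a MYB core that were higher at 26 dpp and had 1 annotated window, and that of Taf7l, the member that was lower. Capitals mark every match of any of these motifs, and matches that touch or overlap run together.

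Rfx2, chr17:56830959-56831258, minus strand: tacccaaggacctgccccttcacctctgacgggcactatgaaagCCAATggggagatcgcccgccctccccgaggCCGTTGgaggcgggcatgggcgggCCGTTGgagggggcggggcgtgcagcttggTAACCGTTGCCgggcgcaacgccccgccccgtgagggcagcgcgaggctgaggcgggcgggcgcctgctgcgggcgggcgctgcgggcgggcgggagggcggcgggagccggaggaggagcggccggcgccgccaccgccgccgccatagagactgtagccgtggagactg

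Sox30, chr11:45980060-45980359, plus strand: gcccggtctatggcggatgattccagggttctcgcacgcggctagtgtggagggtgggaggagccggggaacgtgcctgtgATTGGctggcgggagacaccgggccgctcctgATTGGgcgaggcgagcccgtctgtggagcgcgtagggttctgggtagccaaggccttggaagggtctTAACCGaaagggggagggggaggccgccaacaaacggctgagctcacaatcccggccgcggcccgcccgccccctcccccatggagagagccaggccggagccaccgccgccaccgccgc

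Pou5f2, chr13:78024652-78024951, plus strand: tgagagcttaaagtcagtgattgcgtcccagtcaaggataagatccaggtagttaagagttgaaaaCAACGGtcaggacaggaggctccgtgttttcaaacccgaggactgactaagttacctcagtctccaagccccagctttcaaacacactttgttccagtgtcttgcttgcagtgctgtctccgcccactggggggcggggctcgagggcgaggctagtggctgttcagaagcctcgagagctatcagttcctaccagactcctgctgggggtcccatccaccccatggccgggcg

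Taf7l, chrX:134476441-134476740, minus strand: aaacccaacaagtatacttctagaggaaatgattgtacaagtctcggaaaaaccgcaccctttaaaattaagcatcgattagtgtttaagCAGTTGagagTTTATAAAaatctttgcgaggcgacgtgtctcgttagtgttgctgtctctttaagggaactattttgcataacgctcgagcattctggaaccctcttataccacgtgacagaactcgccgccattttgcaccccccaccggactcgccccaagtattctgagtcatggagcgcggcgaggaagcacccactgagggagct

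A MYB core was found in windows of 5 of the 7 members (Rfx2, Sox30, Pou5f2, Taf7l and Fhl5), a match that 49.7% of all 32851 windows hold. The Rfx2 window held 4 of these cores, counted on both strands, and was the only member window with a short X-box (12.5% of all windows). There the run TAACCGTTGCC, at -121 to -111 from the start, joins a MYB core to a short X-box, and 2 MYB cores on opposite strands overlap within it. Neither CRE form was found in these 7 members' windows, Crem not searched, against 1.79% and 7.51% of all windows, and no octamer was found (1.74%). CCAAT occurred in windows of 4 members (Fhl5, Brdt, Sox30 and Rfx2; 37.4% of all windows), the SOX core in Fhl5 (10.7%), and TATAAA in Taf7l (13.6%). A match describes letters and not binding.

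Between 17 and 26 dpp in WT testes, 8 of the 9 members were higher at the older age and Taf7l was lower. All 9 counting probes passed an adjusted p of 0.05, where 45.2% of all genes did (18.4% higher, 26.8% lower). The 26 and 17 dpp arrays of WT did not overlap for any of the 9, against 88.4% of all genes. The median change of the members was 3.002 on the log2 scale, and that of all genes was -0.51. Of the 7 epididymis markers, 7 were lower at 26 dpp in WT (median -5.93) and 0 were lower in KO, and their part in the WT age results was not tested. The array measures RNA per amount of testis RNA, so fewer cells of a type and less RNA per cell cannot be told apart, here or below. The plot of the members by array shows the same separation of the ages for every gene in WT.

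**Figure D1:**
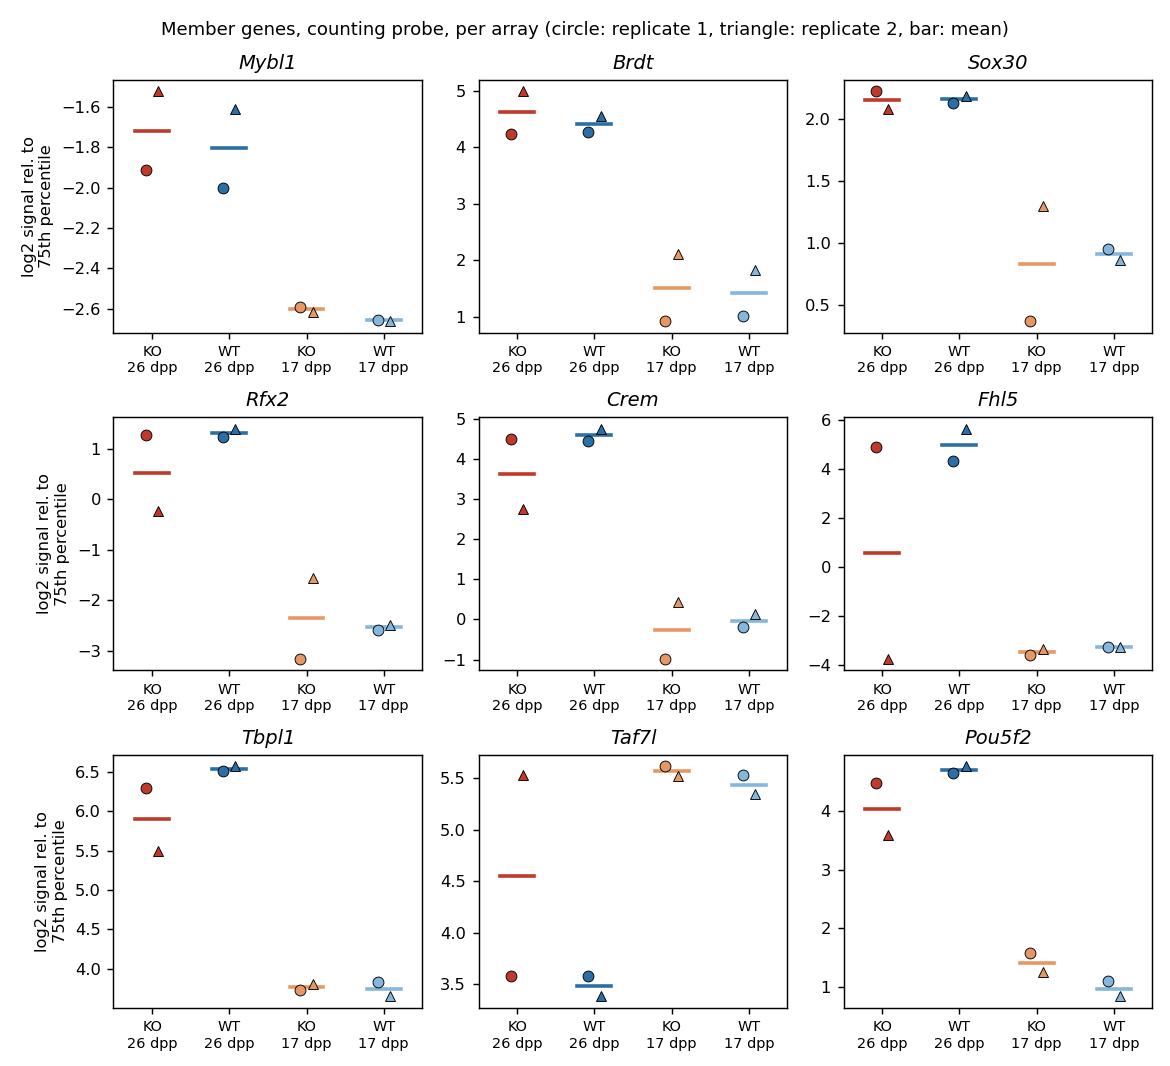
Log2 signal relative to the array's 75th percentile (vertical axis, own scale per gene) of the counting probe of each member, with KO and WT at 26 dpp left of KO and WT at 17 dpp; points are arrays and bars are means of 2. In WT all 9 genes separate by age, and in Fhl5 and Taf7l the triangle of KO replicate 2 at 26 dpp lies at the level of the 17 dpp arrays.

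Mybl1 encodes A-MYB, the regulator of the pachytene programme and of many piRNA precursors. Its probe lies at chr1:9659134-9659193 (mm9, as given in the files, which name no exon). The log2 signal was -1.91 and -1.52 in KO and -2.00 and -1.61 in WT at 26 dpp, and -2.59 and -2.61 in KO and -2.65 and -2.66 in WT at 17 dpp. All 4 arrays of 26 dpp lay above all 4 of 17 dpp. The WT change was 0.85 ± 0.27 (SE, limma adjusted p = 0.0455), the smallest of the 9. It did not pass with median scaling (0.78, adjusted p = 0.091) or with normexp background correction (0.48, adjusted p = 0.0965, with the 75th percentile). The normexp settings add an offset of 50 intensity units, and this probe was dim, at 67.9 to 200 units.

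Brdt encodes a testis BET protein that reads acetylated histones in spermatocytes and spermatids. Its counting probe (chr5:107779688-107779747) read 4.24 and 4.997 in KO and 4.28 and 4.56 in WT at 26 dpp, and 0.92 and 2.11 in KO and 1.01 and 1.83 in WT at 17 dpp. In WT the difference between the ages was 3.002 ± 0.52 (adjusted p = 0.0118). KO replicate 2 at 26 dpp, which stood apart over all genes, was the highest of the 8 arrays here.

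Sox30 encodes a SOX factor that mice need for round spermatid development. Its probe (chr11:45831435-45831494) read 2.22 and 2.08 in KO and 2.13 and 2.19 in WT at 26 dpp, and 0.37 and 1.30 in KO and 0.95 and 0.86 in WT at 17 dpp. WT testes changed by 1.25 ± 0.35 (adjusted p = 0.0329, or 0.0803 with the replicate number as a block). The 4 arrays of 26 dpp span a narrower range than the 2 KO arrays of 17 dpp.

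Rfx2 encodes an X-box binding factor required for spermatid maturation and a regulator of ciliary genes. Its probe (chr17:56915749-56915808) read 1.28 and -0.22 in KO and 1.23 and 1.40 in WT at 26 dpp, and -3.16 and -1.56 in KO and -2.60 and -2.48 in WT at 17 dpp. Between the ages WT changed by 3.85 ± 0.66 (adjusted p = 0.0117). KO replicate 2 at 26 dpp lay below the other arrays of its age and above all those of 17 dpp.

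Crem encodes the CRE modulator, whose activating form rises in male germ cells. Its counting probe (chr18:3267671-3267730) read 4.50 and 2.77 in KO and 4.46 and 4.76 in WT at 26 dpp, and -0.98 and 0.45 in KO and -0.19 and 0.14 in WT at 17 dpp. The WT change was 4.63 ± 0.68 (adjusted p = 0.0089), a 24.8-fold higher signal. As for Rfx2, KO replicate 2 at 26 dpp was between the ages.

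Fhl5 encodes ACT, a LIM-only coactivator of CREM in testis. Its counting probe (chr4:25127057-25127116) read 4.91 and -3.76 in KO and 4.33 and 5.65 in WT at 26 dpp, and -3.59 and -3.38 in KO and -3.27 and -3.29 in WT at 17 dpp. The WT change was 8.27 ± 2.50 (adjusted p = 0.0402), the largest of the 9 and a 308-fold higher signal. Over the planned processing settings it was 7.11 to 8.27, and the probe was dim in WT at 17 dpp, at 45.2 to 46.9 intensity units. KO replicate 2 at 26 dpp was the lowest of the 8 arrays, while its replicate 1 lay within the WT range.

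Tbpl1 encodes TRF2, a TBP-related factor that mice need for spermatid development. Its counting probe (chr10:22425312-22425371) read 6.30 and 5.50 in KO and 6.51 and 6.57 in WT at 26 dpp, and 3.73 and 3.81 in KO and 3.84 and 3.65 in WT at 17 dpp. It changed by 2.79 ± 0.32 in WT (adjusted p = 0.0063). Both KO arrays of 26 dpp were below both WT arrays of that age, replicate 2 by more.

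Taf7l encodes an X-linked germ cell relative of the TFIID subunit TAF7. Its probe (chrX:130994658-130994717) read 3.58 and 5.53 in KO and 3.58 and 3.39 in WT at 26 dpp, and 5.61 and 5.52 in KO and 5.53 and 5.34 in WT at 17 dpp. In WT it fell by 1.96 ± 0.60 (adjusted p = 0.0416), to 3.88-fold less signal. KO replicate 2 at 26 dpp lay among the arrays of 17 dpp.

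Pou5f2 encodes a POU homeodomain protein of male germ cells. Its probe (chr13:78165362-78165421) read 4.48 and 3.60 in KO and 4.65 and 4.77 in WT at 26 dpp, and 1.58 and 1.25 in KO and 1.095 and 0.84 in WT at 17 dpp. The WT change was 3.74 ± 0.35 (adjusted p = 0.0054), the smallest adjusted p of the 9. The KO arrays were below WT at 26 dpp and above WT at 17 dpp.

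The direction of these 9 WT changes was the same in every alternative run, but the calls depended on single WT arrays. Without WT replicate 1 or replicate 2 at 17 dpp, or without WT replicate 2 at 26 dpp, 0 of 9 members passed in limma, as did 0.662%, 0.606% and 0% of all genes. At an unadjusted p under 0.05 those 3 fits called 6, 5 and 5 members, against 37.6%, 38.0% and 33.2% of all genes. Without WT replicate 1 at 26 dpp 1 member passed (2.67% of genes), and without either KO array of 17 dpp 6 did (26.9%). Leaving out either KO array of 26 dpp kept the count at 9 (69.6% of genes).

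In KO testes the change between the ages passed for 5 of the 9 members, all higher at 26 dpp, where 15.1% of all genes passed (7.49% higher, 7.61% lower). These were Crem (3.90 ± 0.68, adjusted p = 0.0240), Brdt (3.11 ± 0.52, adjusted p = 0.0220), Rfx2 (2.89 ± 0.66, adjusted p = 0.0398), Pou5f2 (2.62 ± 0.35, adjusted p = 0.0176) and Tbpl1 (2.13 ± 0.32, adjusted p = 0.0196). Sox30 (1.32, adjusted p = 0.0532), Mybl1 (0.89, adjusted p = 0.0760), Taf7l (-1.01, adjusted p = 0.264) and Fhl5 (4.06, adjusted p = 0.278) did not pass. The members' median was 2.62, and that of all genes was -0.34. Without KO replicate 2 at 26 dpp, 8 of 9 passed (60.2% of genes, 20.7% higher and 39.4% lower): 7 higher, Fhl5 among them at 8.40, and Taf7l lower at -1.98. Mybl1 was the exception there (0.69, adjusted p = 0.0509). Without KO replicate 1 at 26 dpp 5 passed (18.4% of genes), and Fhl5 then had a difference of -0.28. Without KO replicate 2 at 17 dpp 2 passed (3.86%), and without KO replicate 1 at 17 dpp or any single WT array 0 passed (0% and 0.113% to 0.218% of genes), with 6 or 7 members at an unadjusted p under 0.05, against 20.2% to 28.6% of genes.

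The 2 KO arrays of 26 dpp were placed on the WT change of each gene, with the WT mean at 17 dpp set to 0% and that at 26 dpp to 100%. In replicate 1 the 9 members lay between 87.3% (Mybl1) and 105% (Sox30). In replicate 2 they fell into a wide spread. Mybl1, Brdt and Sox30 stood at 133%, 119% and 93.9%, near or past the WT mean at 26 dpp. The 2 WT arrays of that age themselves lay at 76.8% and 123% for Mybl1. They lay at 95.4% and 105% for Brdt and at 97.7% and 102% for Sox30. Pou5f2, Tbpl1, Crem and Rfx2 stood at 70.4%, 62.8%, 60.3% and 60.1%, part of the way. Taf7l and Fhl5 stood at -4.58% and -5.80%, at the 17 dpp level. The median of 9 pachytene and diplotene markers on the same scale was 54.4% in replicate 2 and 96.7% in replicate 1, and medians of the round and elongating spermatid markers were 13.3% and 10.6% in replicate 2 against 99.0% and 98.9% in replicate 1. Of the 10 round spermatid markers 5, and of the 10 elongating spermatid markers 4, were well above background on all arrays. The log2 of their summed signal was 7.004 and 2.72 (round) and 10.1 and 6.84 (elongating) in the KO arrays of 26 dpp, against 6.77 and 7.36, and 9.69 and 10.9, in WT of that age. At 17 dpp these sums ran from 1.02 to 1.13 in KO and 1.07 to 1.08 in WT for the round markers, and from 3.73 to 4.58 in KO and 3.99 to 4.09 in WT for the elongating markers. These places describe 1 array, and the part of cell makeup in them was not tested.

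**Figure D2:**
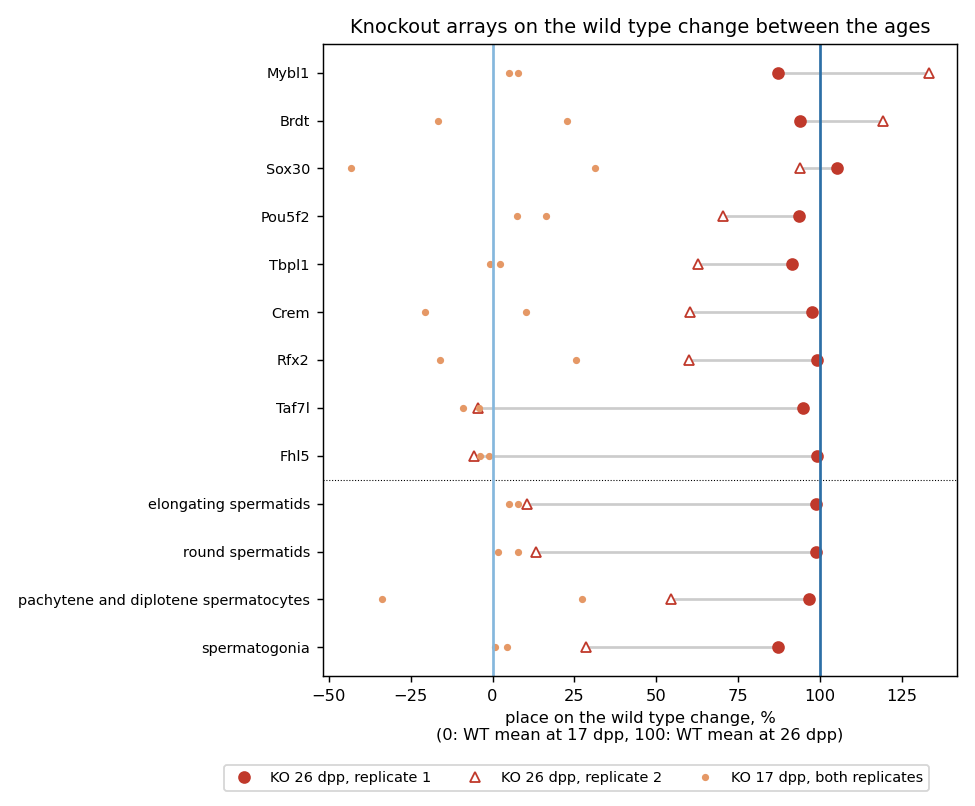
Place of each KO array on the WT change between the ages (horizontal axis, percent; 0 is the WT mean at 17 dpp and 100 the WT mean at 26 dpp) for the 9 members and, under the dotted line, medians of 4 marker lists. Replicate 1 at 26 dpp lies near 100 throughout, while replicate 2 ranges from 133% for Mybl1 to -5.80% for Fhl5. The WT arrays of 26 dpp, not drawn, were at 76.8% and 123% for Mybl1.

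Between KO and WT testes at 26 dpp no member passed (0 of 9, with 0.00752% of all genes passing), and none had an unadjusted p under 0.05, against 2.39% of all genes. The differences ran from -4.41 ± 2.50 for Fhl5 to 1.07 ± 0.60 for Taf7l (SE, adjusted p = 0.536 for both in limma). Crem (-0.98), Rfx2 (-0.79), Pou5f2 (-0.67) and Tbpl1 (-0.64) had negative values, and Brdt (0.20), Mybl1 (0.09) and Sox30 (-0.01) had values near 0. The KO and WT arrays did not overlap for 3 of the 9 (Taf7l, Pou5f2 and Tbpl1), against 32.5% of all genes. The median over members was -0.64, and that over all genes was 0.12.

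These differences turned on 1 array. Without KO replicate 2 they ran from -0.24 (Tbpl1) to 0.10 (Taf7l), with a median of -0.11 and 0 of 9 passing (0.0188% of genes). The 95% intervals of that fit reached from -0.74 to 0.26 for Tbpl1 and from -1.43 to 1.29 for Fhl5. Without KO replicate 1 instead, 4 of 9 passed, where 45.5% of all genes did: Fhl5 (-8.75, adjusted p = 0.0008), Tbpl1 (-1.04, adjusted p = 0.0121) and Pou5f2 (-1.11, adjusted p = 0.0183) were lower in KO and Taf7l (2.05, adjusted p = 0.0029) was higher. In both fits the single KO array of that age is assumed to vary as the other groups do.

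**Figure D3:**
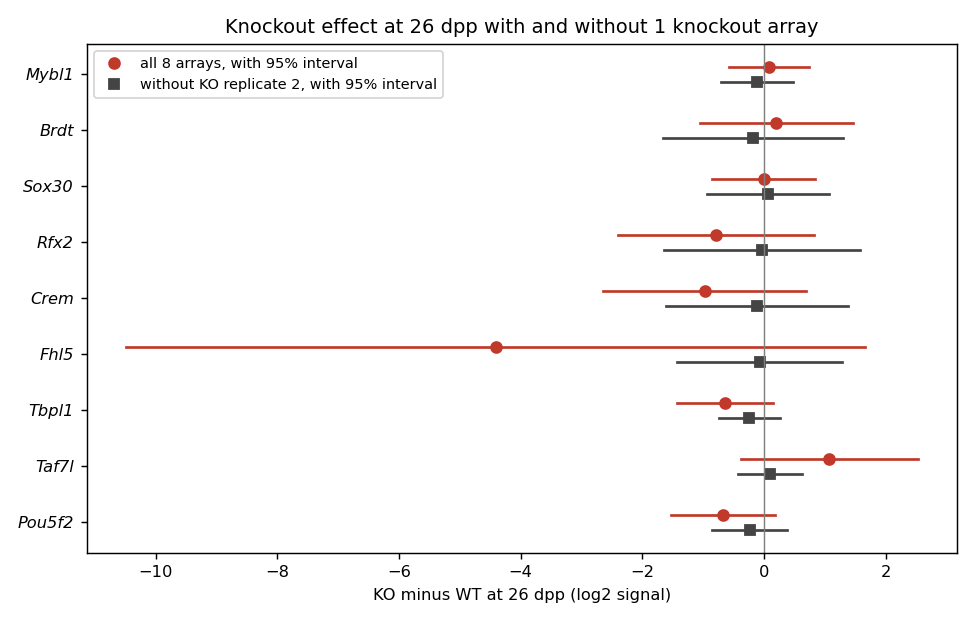
KO minus WT log2 signal at 26 dpp (horizontal axis) of the 9 counting probes, with 95% intervals from limma, for all 8 arrays (circles) and without KO replicate 2 (squares). Every interval holds 0, and the estimate for Fhl5 is -4.41 with the array and -0.07 without it.

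At 17 dpp no member differed between KO and WT past the threshold (0 of 9, with 0.0828% of all genes), and none had an unadjusted p under 0.05, against 1.43% of all genes. Differences ran from -0.24 (Crem) to 0.45 (Pou5f2), with a median of 0.06 beside 0.03 for all genes, and every adjusted p was 1.00. KO and WT arrays did not overlap for 3 of 9 (Pou5f2, Mybl1 and Fhl5), against 28.6% of all genes. The 95% interval was -0.41 to 1.31 for Pou5f2 and -0.60 to 0.71 for Mybl1, and for Fhl5 it was as wide as -6.28 to 5.87, since the fit shares each probe's spread over all 4 groups. The 2 KO arrays of 17 dpp differed from each other more than the WT pair did for Crem, Rfx2, Sox30, Brdt and Fhl5, with replicate 2 the higher, and for Pou5f2 and Mybl1, with replicate 1 the higher.

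The KO effect at 26 dpp minus that at 17 dpp passed for 0 of 9 members and 0% of all genes, with 1.87% of genes and 0 members at an unadjusted p under 0.05. It ran from -4.21 (Fhl5) to 0.94 (Taf7l). Pou5f2, above WT at 17 dpp and below it at 26 dpp, had -1.12 ± 0.50 (adjusted p = 0.791). Without KO replicate 2 at 26 dpp that value was -0.68, and 0 of 9 passed (0% of genes). Without KO replicate 1 at 26 dpp 4 passed, again Fhl5, Taf7l, Tbpl1 and Pou5f2, where 32.0% of all genes did.

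Probes of 1 gene did not always change alike. For 3 genes, both probes were well above background on every array, and the difference between them within each array cancels the scaling of the array. That difference alone says nothing of transcript amounts, but its change with age shows unequal change of the 2 probes. The Brdt probes were designed to different RefSeq transcripts and lie apart in the gene, the other one at chr5:107815297-107815356. The counting probe minus the other was 2.92 to 3.55 in the arrays of 26 dpp and 0.92 to 1.25 in those of 17 dpp, a change of 2.16. In WT the other Brdt probe had a change of 0.60 (adjusted p = 0.334), so only 1 of the 2 Brdt probes passed, where 44.1% of all probes did. For Crem, whose second probe (chr18:3267049-3267108) lies next to the first, the difference was 1.37 to 2.42 at 26 dpp and -0.23 to -0.07 at 17 dpp, a change of 2.23. That second Crem probe also passed in WT, with a change of 2.20 (adjusted p = 0.0205).

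For Tbpl1, whose second probe (chr10:22426118-22426177) was dim at 15.8 to 54.0 intensity units, the difference was 9.43 to 10.3 at 26 dpp and 7.46 to 8.53 at 17 dpp, a change of 1.73. That probe had a WT change of 1.05 (adjusted p = 0.0615), or 0.082 with normexp and the 75th percentile (adjusted p = 0.694). In each of the 3 genes the 4 arrays of 26 dpp, KO and WT together, lay apart from the 4 of 17 dpp. How often probe pairs of other genes separate in this way was not counted. The exact two-sided permutation test over arrays gave p = 0.0286, the smallest that 70 regroupings of 4 against 4 allow, and 0.0286 after Benjamini-Hochberg adjustment over the 3 genes. With each array left out in turn the changes stayed at 2.06 to 2.27 for Brdt, 2.12 to 2.47 for Crem and 1.48 to 1.90 for Tbpl1.

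The other 3 probes were dim in some groups. The second Fhl5 probe, which the files place across a gap at chr4:25141912-25169891, was well above background on 3 arrays only, the 2 of WT and replicate 1 of KO at 26 dpp. It read 1.66 and -7.18 in KO and 0.89 and 2.41 in WT at 26 dpp, and lay at -7.36 to -7.35 in KO and -7.66 to -7.50 in WT at 17 dpp. Without normexp, its WT signal was at least 144-fold higher at 26 dpp. The lower level for this bound was the larger of its own signal and the lowest signal well above background on each array. The measured log2 change of 9.23 was 4.64 with normexp and the 75th percentile. This probe entered the tests only through WT at 26 dpp, where it is high, so that its change is a description. The same array was low with both Fhl5 probes, which share no position. The next Crem probe (chr18:3283995-3284054), well above background on 5 arrays, was at least 6.50-fold higher at 26 dpp in WT without normexp. It too entered only through groups of 26 dpp, and its measured log2 change of 3.39 was 0.85 with normexp and the 75th percentile. The last Crem probe (chr18:3294164-3294223), well above background on 4 arrays, had a WT change of -0.09 (adjusted p = 0.922), or 0.05 with normexp and quantile scaling.

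**Figure D4:**
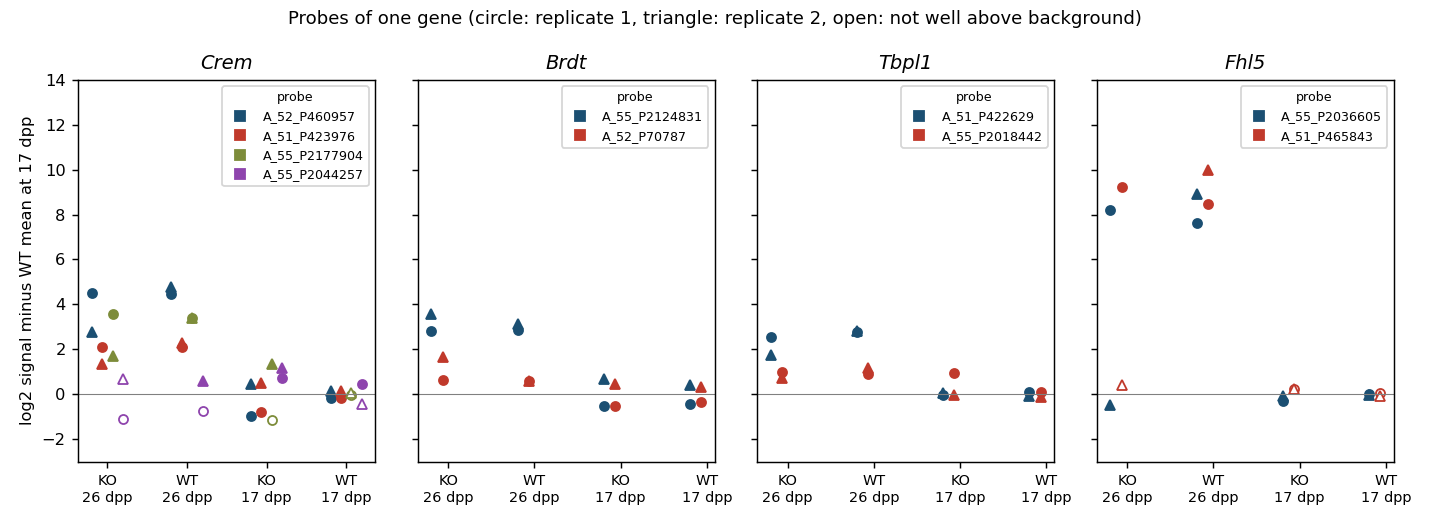
Log2 signal minus the WT mean at 17 dpp (vertical axis) for every probe of the 4 genes with several probes, with KO and WT at 26 dpp left of KO and WT at 17 dpp; open symbols were not well above background. The counting probes of Crem, Brdt and Tbpl1 change more with age than the second probes, and both Fhl5 probes are low in KO replicate 2 at 26 dpp.

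The partners and described targets of these factors were taken from lists chosen with earlier results of these arrays known. Genes of a list counted as higher or lower are those that passed an adjusted p of 0.05 in limma. Between the ages in WT, 18.4% of all genes were higher and 26.8% lower by that rule. In KO the shares were 7.49% and 7.61%, and those without KO replicate 2 at 26 dpp are given above. Of 12 CREM and CREB relatives and cofactors, 3 were higher and 1 lower at 26 dpp in WT, with a median of -0.06. Creb3l4, a testis-enriched CREB family member, was higher by 6.29 ± 1.45 (adjusted p = 0.0218), and Fhl4, a testis relative of Fhl5, by 5.40 ± 0.91 (adjusted p = 0.0112). Prkar1a, a regulatory subunit of protein kinase A, was higher by 1.14 and Ep300, a general coactivator, fell by 1.33. Of 10 post-meiotic genes described as CREM targets, 8 were higher and 0 lower, with a median of 9.86. The sperm nuclear protein genes Tnp2 (12.83, adjusted p = 0.0286), Prm1 (12.36, adjusted p = 0.0399) and Prm2 (11.44, adjusted p = 0.0319) were among them. The WT mean of Tnp2 at 17 dpp, -5.89, was below the lowest signal well above background on any array (-5.56 to -5.12). The size of its change thus rests on a dim signal. Smcp, a sperm mitochondrial capsule gene, was at least 2840-fold higher without normexp (limma adjusted p = 0.0190).

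In KO testes 0 of these 10 targets passed between the ages, against 9 of 10 without replicate 2 at 26 dpp. Their median KO minus WT difference at 26 dpp was -4.45 with that array and -0.01 without it, and 0 of 10 passed either way. Crem itself had -0.98 and -0.11 in the same fits, and Fhl5 had -4.41 and -0.07. Prm1 and Tnp2 showed the largest values of the list, -6.54 and -5.98 (adjusted p = 0.536 for both), or -0.01 and -0.23 without that array. Of these 10 targets, Prm1, Prm2, Tnp1, Tnp2, Odf1 and Smcp are also in the elongating spermatid list above.

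Of 12 genes described as targets of A-MYB, 11 were higher and 0 lower at 26 dpp in WT, with a median of 3.80. They included Pgk2, the germ cell phosphoglycerate kinase, (9.22 ± 1.15, adjusted p = 0.0071), the germ granule gene Tdrd6 (8.07 ± 1.30, adjusted p = 0.0104) and the meiotic cyclin gene Ccna1 (8.03 ± 0.71, adjusted p = 0.0049). Mybl1 itself changed by 0.85. In KO testes 7 of the 12 were higher and 0 lower between the ages, with a median of 3.36, or 8 and 0 with a median of 3.82 without KO replicate 2. In KO against WT at 26 dpp 0 of 12 passed, with a median of -0.58, or -0.14 without KO replicate 2. Of the 12, 6 (Piwil1, Mael, Ccna1, Pgk2, Ldhc and Clgn) are also in the pachytene marker list.

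Of 15 measured MYB relatives and germ cell regulators of spermatogonia and meiosis, 4 were higher and 8 lower in WT at 26 dpp, with a median of -1.77. Dmrtb1, a regulator of the entry into meiosis, was higher by 4.06 ± 0.52 (adjusted p = 0.0072), and Kctd19, a meiotic cofactor, by 3.16 ± 0.48 (adjusted p = 0.0092). Myb fell by 3.17 (adjusted p = 0.0207) and Sall4, a factor of spermatogonia, fell by 3.03 (adjusted p = 0.0254). In KO 3 were higher and 0 lower between the ages, and without replicate 2 at 26 dpp 4 were higher and 10 lower.

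Of 9 measured RFX and cilia regulators, 4 were higher and 0 lower in WT, with a median of 0.22. Foxj1, the regulator of motile cilia, was higher by 5.38 ± 1.40 (adjusted p = 0.0287), Rfx8 by 5.07 ± 0.86 (adjusted p = 0.0115) and Rfx4 by 3.33 ± 0.61 (adjusted p = 0.0133). Rfx6 was at least 2.37-fold higher without normexp (limma adjusted p = 0.0430). In KO against WT at 26 dpp Foxj1 had -2.32, or 0.10 without KO replicate 2, and did not pass in either fit. Rfx2 had -0.79 and -0.03 there.

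Of 20 measured TBP, TFIIA and TAF genes, 5 were higher and 4 lower in WT at 26 dpp, with a median of 0.17. Gtf2a1l, the germ cell TFIIA subunit, was higher by 5.75 ± 1.05 (adjusted p = 0.0131), and Taf3 by 2.61 ± 0.30 (adjusted p = 0.0062). Taf8 fell by 2.26 (adjusted p = 0.0231) and Taf1 fell by 2.11 (adjusted p = 0.0185). Tbpl1 and Taf7l, from the same machinery, changed by 2.79 and -1.96. In KO 4 of the 20 were higher and 0 lower, and without replicate 2 at 26 dpp 7 were higher and 7 lower. No gene of these 6 lists passed between KO and WT at either age with all 8 arrays.

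Genes whose log2 signals followed those of a member most closely over the 8 arrays were named by Pearson's r among 16435 genes with a symbol. The 8 arrays form 2 age groups with KO replicate 2 at 26 dpp between them, so r describes that layout and carries no test. Akd1 and Adad1 were most like Crem, Tssk3 and Lmnb2 like Fhl5, Dnaic1 and Cc2d2b like Rfx2, and Alkbh7 and Mettl22 like Tbpl1. Ube2z and Plaa followed Taf7l, and Armc9 and Nubp2 followed Pou5f2. Spdye4b and Spata4 followed Sox30, Memo1 and Sap30 followed Brdt, and Ahctf1 and Oprl1 followed Mybl1. All 18 values of r were between 0.994 and 1.00, or from 0.993 to 1.00 without KO replicate 2 at 26 dpp. Between members, r ran from -0.997 (Fhl5 with Taf7l) to 0.995 (Crem with Rfx2) over 36 pairs, and Fhl5 had only 0.592 with Mybl1 and 0.652 with Brdt. Without that array Fhl5 had 0.978 with Mybl1 and 0.966 with Brdt.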

How the data were processed

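The 55681 probes filled 59305 non-control spots of an array, with all arrays on 1 slide. Feature Extraction 11.5.1.1 (per the file headers, and listed by the submitters' processing notes) gave the processed signal, an intensity per spot corrected for background and deposited without scaling between arrays. The authors' deposited table of log2 values, whose scale, centring and direction no label states, followed log2 of that signal minus the array's 75th percentile to within a median of -0.006 to 0.007, with column medians from -3.84 to -3.59; how spots were combined is unknown. Positions are mm9, per the file headers.

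Spots flagged as outliers, 103 to 200 on an array, were removed, 0 spots were saturated, and spots of a probe were averaged. Tested probes carried the well-above-background flag on both arrays in any of the 4 groups, and 94 were dropped for outlier flags. The number of arrays limits the precision. Symbols came from accessions (27509 probes), from a current symbol in the file (3549) or the file's name (24623); 0 probes of another name mapped to a member.

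limma 3.58.1 (R 4.3.3) fitted 1 mean per group over all 8 arrays, with two-sided tests, 4 residual and 2.2 prior degrees of freedom, and Benjamini-Hochberg adjustment over 37807 probes. It was tested on simulated data. The 5 comparisons were KO against WT at each age, their difference, and age in each genotype. Named genes were all members, up to 4 passing genes per list with the largest change (2 in KO comparisons) and the 2 closest by correlation. The members, lists and rules were chosen with earlier results of these data known. No label says that arrays came from separate animals, so p-values measure the spread between arrays.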

Additional observations from a re-analysis of the deposited data

How the results depend on the processing

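Of 9 members, the count that passed between the ages in WT was 5 with the replicate block, 6 without the filter on dim probes and 8 or 9 in the other planned settings. Of all 37807 probes the block called 2800 higher and 1624 lower, against 6638 and 10051 in the main fit. Without the filter the calls were 6144 higher and 8448 lower of 55562 probes. In KO it was 0 with the replicate block, 0 with array weights and 0 with only the 4 arrays of the comparison, against 4 to 6 in the others. Of all probes those 3 settings called 0, 58 and 0 in KO, against 2619 higher and 2973 lower in the main fit. Leaving out 1 array at a time gave 0 to 9 members in WT, 0 to 8 in KO, 0 to 4 for KO against WT at 26 dpp, 0 to 0 at 17 dpp and 0 to 4 for the difference between the KO effects. Mybl1 lost its WT call with median scaling, both normexp settings, no filter on dim probes and the replicate block. Fhl5 and Taf7l lost theirs without the filter and with the block, and Sox30 with the block.

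Values near 0 changed sign. For KO minus WT at 26 dpp, Sox30 had 0.11 with median scaling, and leaving out 1 array at a time gave -0.077 to 0.065 for Sox30, -0.11 to 0.29 for Mybl1 and -0.18 to 0.58 for Brdt. For KO minus WT at 17 dpp it gave -0.95 to 0.47 for Crem. The last Crem probe had a WT change of 0.049 with normexp and quantile scaling and -0.76 to 0.58 with 1 array left out. With KO replicate 1 or replicate 2 at 26 dpp left out, the Fhl5 change in KO was -0.28 or 8.40, and the difference between the KO effects ran from -8.54 to 0.13 for Fhl5 and from -0.029 to 1.92 for Taf7l. The cause was not tested.

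Same-numbered KO and WT arrays deviated together with r = 0.110 at 17 dpp and -0.401 at 26 dpp, over 2 pairs at each age. The pairs of an age mirror each other, so each r is 1 comparison, and that of 26 dpp includes the KO array that stood apart. The labels give no pairing beyond the number, and none was assumed. The replicate block called 4424 of all probes between the ages in WT (2800 higher, 1624 lower) against 16689 without it (6638 higher, 10051 lower), and 0 against 5592 in KO.

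Array weights called 28040 probes in WT and 58 in KO, and fits to the 4 arrays of the comparison called 26271 and 0. Median scaling turned the split in KO to 2806 higher and 1931 lower, against 2619 and 2973. The median WT change of all probes was -0.53, against -0.61 with median scaling, -0.41 with normexp and -0.26 with quantile scaling. Between KO and WT at 26 dpp 3 probes passed and the median was 0.12, against 0 probes and 0.23 with median scaling. At 17 dpp 26 passed, against 0 to 52 in the other planned settings. Signal limits 3 of the 15 member probes, which were not well above background in some groups.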

Other observations

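Relatives of Sox30 and Pou5f2 that act mostly outside these germ cell stages changed in both directions between the ages. Of 10 measured SOX genes, 1 was higher and 6 were lower at 26 dpp in WT, counted as in the lists above, with a median of -1.67. Sox3, a factor of spermatogonia, fell by 2.87 ± 0.63 (SE, limma adjusted p = 0.0200) and Sox4 fell by 2.63 ± 0.36 (adjusted p = 0.0080). Sox12 fell by 2.39 and Sox8, a Sertoli cell factor, fell by 1.99. In KO 0 were higher and 4 lower, or 1 and 7 without KO replicate 2 at 26 dpp.

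Of 6 POU genes, 2 were higher and 2 lower in WT: Pou2f2 (2.25, adjusted p = 0.0307) and Pou6f1 (1.94, adjusted p = 0.0186) were higher, while Pou3f1 fell by 2.18 (adjusted p = 0.0147) and Pou4f1 fell by 2.07 (adjusted p = 0.0325).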
